A study of Mus musculus with 7 samples.

Results

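The genes described are 10 transcription factors and receptors that steer blood progenitors towards the lymphoid fate: Ikzf1, Ikzf2, Ikzf3, Satb1, Bcl11a, Ebf1, Tcf3, Tcf4, Notch1 and Mef2c. They were taken by symbol from the gene annotation deposited with the counts, 10 of 32285 genes, and every one of the 10 had at least 1 UMI (unique molecular identifier, a tag that counts each captured transcript once) in a kept cell. The series measured RNA in single LSK cells of mouse bone marrow, that is, cells without lineage markers that were sorted for Sca-1 and cKit. There were 3 libraries labelled B4galt1 KO, whose genotype label is 129S1/C57Bl/6, B4-/-, and 4 labelled WT, whose genotype label is 129S1/C57Bl/6. The genotype label is read here as a full knockout, present in every cell of the mouse. On that reading the labels do not part an effect inside the progenitors from one of the surrounding tissue. Age, sex and whether a library came from 1 mouse or several are not given in the sources used here, so a p-value measures only the spread between these samples. B4galt1 encodes a galactosyltransferase, and the series title asks how glycosylation steers stem cells towards megakaryocytes through Wnt and Muc13.

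Lymphoid commitment starts inside the LSK compartment. Ikaros family zinc finger proteins, the chromatin organiser Satb1, Bcl11a and the E proteins open or silence lineage genes, Mef2c favours lymphoid over myeloid genes, Ebf1 fixes the B cell fate together with the E protein E2A, and Notch1 is the receptor that directs the T cell fate. Galactose added by B4galt1 to Fringe-modified sugars on Notch receptors is known to tune how they answer their ligands.

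Satb1 and Notch1 are shown by a promoter each because over all kept cells they were the pair of members with the highest odds ratio of being seen together, and Ebf1 because it ranged most widely between cell states. Each line gives the window, out of those listed for the gene, with the most E-box matches (CANNTG, the letters E proteins bind), 250 bases before to 50 after a RefSeq start on GRCm38.p6, read 5′ to 3′ on the gene's strand. Capitals mark matches to CANNTG, and to TGGGAA, a core shared by Ikaros and the Notch partner Rbpj, on either strand.
Satb1, chr17:51826539-51826838, minus strand: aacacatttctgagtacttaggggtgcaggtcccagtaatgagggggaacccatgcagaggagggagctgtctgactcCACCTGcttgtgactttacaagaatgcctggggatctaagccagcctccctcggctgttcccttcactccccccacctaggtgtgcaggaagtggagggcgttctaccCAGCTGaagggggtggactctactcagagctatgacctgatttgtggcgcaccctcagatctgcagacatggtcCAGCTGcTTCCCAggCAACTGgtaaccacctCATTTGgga
Notch1, chr2:26503773-26504072, minus strand: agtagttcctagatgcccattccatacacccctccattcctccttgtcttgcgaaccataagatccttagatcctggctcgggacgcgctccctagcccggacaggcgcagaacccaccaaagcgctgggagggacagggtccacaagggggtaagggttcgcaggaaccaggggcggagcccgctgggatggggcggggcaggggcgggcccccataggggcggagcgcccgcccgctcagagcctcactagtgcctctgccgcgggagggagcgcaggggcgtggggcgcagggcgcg
Ebf1, chr11:44619978-44620277, plus strand: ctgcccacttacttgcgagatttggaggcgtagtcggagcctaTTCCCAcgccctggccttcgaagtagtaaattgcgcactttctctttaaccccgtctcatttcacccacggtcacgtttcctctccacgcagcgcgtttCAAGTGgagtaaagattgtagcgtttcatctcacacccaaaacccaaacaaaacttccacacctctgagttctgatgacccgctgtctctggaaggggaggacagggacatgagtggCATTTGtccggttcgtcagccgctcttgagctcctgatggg
The Satb1 window held 5 matches to CANNTG and 1 to TGGGAA, the Ebf1 window 2 and 1, and the Notch1 window none of either. Of 32851 promoter windows of this length, 72.3% held CANNTG and 25.6% held TGGGAA, so a match is common. The table holds windows of 7 of the 10 members, 15 in all. These are matches of letters, not measured binding.

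Library handling was not uniform across labels. By their first 6 bases the cell barcodes belonged to 2 separate sets of sequences, here called list A (knockout-labelled libraries 1 and 2, WT libraries 1 to 3) and list B (knockout-labelled library 3 and WT library 4). Total counts ran from 14970791 to 89747946 UMIs per library, kept cells from 1172 to 8862, and median UMIs per kept cell from 8046 to 11083.5. The ribosomal share of UMIs was 31.7% and 31.8% in the 2 list B libraries and 14.8% to 22.3% in list A. In stem-gated cells and in Dntt+ cells alike, the 2 list B libraries had the lowest levels of 8 of the 8 members other than Ikzf3 and Ebf1, as of 39.8% and 31.3% of all genes. States are compared within libraries, and the main tests between labels have the list as a term. Kit, which the sort selects, ran from 137.1 to 310.6 CPM (UMIs scaled to a total of 1000000) and Ly6a (Sca-1) from 16.6 to 48.2, while Cd3e, a T cell marker, stayed at or below 0.493. Knockout-labelled library 3 and WT library 4 shared 88 barcodes, and no other pair shared more than 7.

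Cells were sorted into 16 states by marker genes, none of them a member. The stem state needed UMIs of at least 2 genes out of Procr, Fgd5, Hlf, Mecom, Mllt3 and Trpc6. Dntt+ cells carried the lymphoid enzyme gene Dntt, Il7r+ or Rag1+ cells the interleukin-7 receptor or a recombinase gene, and granule+ cells at least 2 of the neutrophil granule genes Elane, Prtn3 and Ctsg. Each cell took the first gate it met, mature cell types coming first and the stem state near the end. Levels are CPM within the state and are compared between states, not between genes, and log2 differences between states come from edgeR's quasi-likelihood test on state sums with the library as a block. A gene is called when its adjusted p over all genes tested (Benjamini-Hochberg) is under 0.05. The Dntt+, Flt3+ and megakaryocyte contrasts share the same stem sums, and the Il7r+ or Rag1+ and granule+ contrasts the same Dntt+ sums.

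Most members tested were higher in Dntt+ than in stem cells and lower in granule+ than in Dntt+ cells, with Ikzf2 as the exception that fell at both lymphoid steps. Between stem and Dntt+ cells, in 7 libraries, 7 of the 9 members tested were higher and 1 lower, where 39.3% of all genes were called (21% higher, 18.3% lower). Their median log2 difference was 0.60, against 0.01 for all genes. From Dntt+ to Il7r+ or Rag1+ cells, in the 5 libraries with at least 20 such cells, 6 of 9 were higher and 1 lower, where 16.3% of genes were called (8.3% higher, 8.05% lower), with a median of 0.36. From Dntt+ to granule+ cells 7 of 9 were lower and none higher, against 39.6% called (22.1% higher, 17.6% lower), with a median of -0.80. In the megakaryocyte gate against stem, in 3 libraries, 6 of 8 were lower and 2 higher, where 34.1% of genes were called (17.7% higher, 16.4% lower). Without knockout-labelled library 3 only Satb1 of these 8 was called, without WT library 4 there were 6 calls, and DESeq2 made 5. Flt3+ cells without Dntt differed from stem cells in 2 of 8 members, where 3.61% of genes were called (1.49% higher, 2.12% lower). That count was 5 without knockout-labelled library 2, 1 without knockout-labelled library 3 and 1 without WT library 4. Ikzf3 did not pass the filter on low counts in any of these contrasts. With no filter it was called in 1 of the 5, from Dntt+ to Il7r+ or Rag1+ cells (3.45 ± 0.92, edgeR, adjusted p 0.0033), where 15 of its UMIs came from WT library 4 and at most 1 from each of the other 4.

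**Figure D1:**
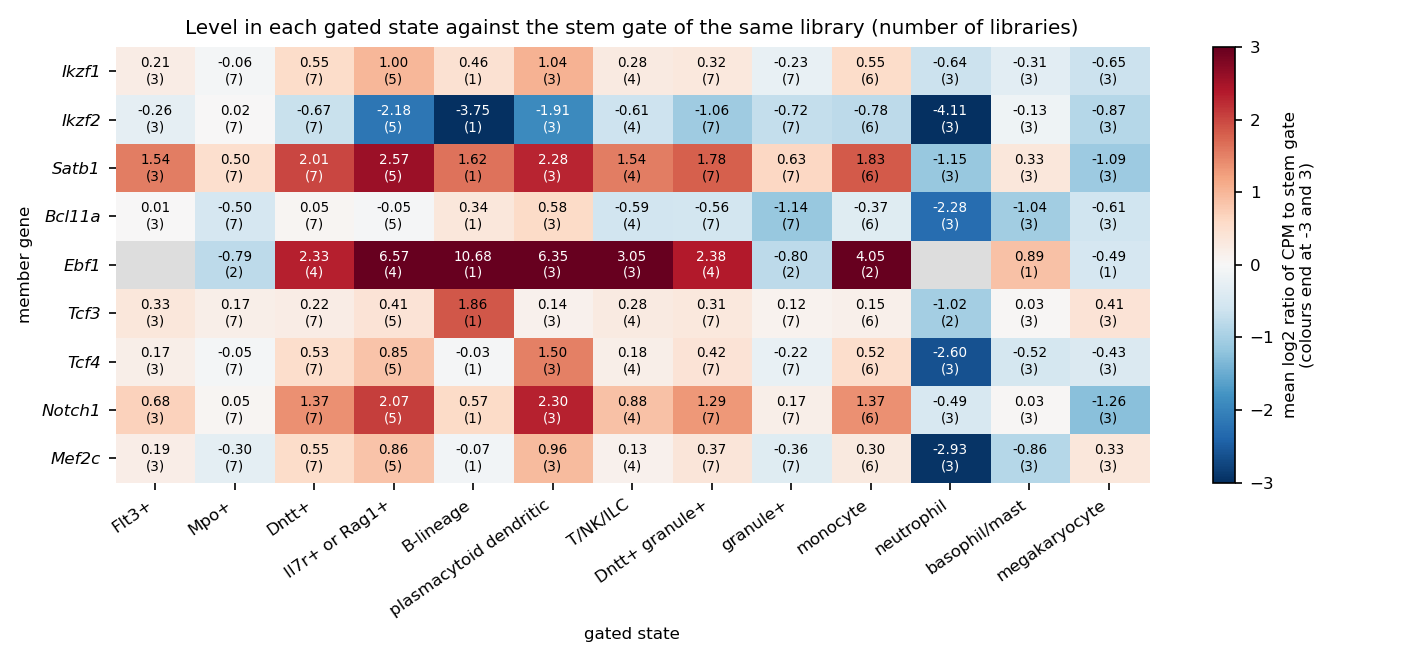
Heat map of 9 members (rows, without Ikzf3) by gated state (columns), with the mean log2 ratio of CPM to the stem state of the same library as colour and number, and the number of libraries in brackets (grey where there is no value). In Il7r+ or Rag1+ cells Satb1 stands at 2.57 and Notch1 at 2.07 while Ikzf2 stands at -2.18, and in the megakaryocyte gate Satb1 and Notch1 are at -1.09 and -1.26.

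Ikzf1 (ENSMUSG00000018654) encodes Ikaros, without which lymphoid progenitors hardly form. Its level was lowest at 185 CPM, 405.5 in the median and highest at 585 over the 7 stem sums, and 274, 522 and 795 CPM over the Dntt+ sums. The ranges overlapped over libraries, yet Dntt+ was above stem in 7 of 7. The log2 difference was 0.60 ± 0.05 (SE, edgeR's adjusted p 5.8e-11). Il7r+ or Rag1+ cells rose by a further 0.50 ± 0.06 (edgeR, adjusted p 3.7e-06), to a median of 725 CPM over 5 libraries. Plasmacytoid dendritic cells, with 391, 883 and 386.5 CPM in 3 libraries, could not be told from them by the spread. Granule+ cells fell by 0.67 ± 0.08 from the Dntt+ level, and megakaryocyte-gated cells, at 153, 114 and 165 CPM, were the lowest of the states just named. Dntt+ cells could not be told from monocyte-gated cells by the spread, at a mean log2 difference of -0.02 ± 0.20 (SD, n = 6).

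Ikzf2 encodes Helios, a relative of Ikaros known from regulatory T cells and from stem cells, and it took the opposite course. Stem sums held 174 CPM at the lowest, 449 in the median and 561.5 at the highest. Dntt+ sums held 133, 261.5 and 367 CPM, and the Il7r+ or Rag1+ sums only 50.5, 73.5 and 91.7. In each library the Dntt+ level was under the stem level, and none of the 5 Il7r+ or Rag1+ sums reached the lowest Dntt+ sum. The edgeR log2 differences were -0.61 ± 0.07 (adjusted p 6.9e-07) and -1.35 ± 0.10 (adjusted p 4.9e-09). Helios transcripts were also scarce in plasmacytoid dendritic cells, at 38.2, 99.1 and 72.9 CPM, and in the 65 B-lineage cells of WT library 4, at 12.98 CPM. Mpo+ cells, which carry early myeloid RNA, matched stem cells within the spread, with a mean log2 ratio of 0.02 ± 0.15 (SD, n = 7).

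Ikzf3 encodes Aiolos, which acts later, in maturing lymphocytes. Only 7 to 110 UMIs were counted per library, and the T, NK and innate lymphoid gate held 14.3% to 60% of them. The granule+ gate held more in knockout-labelled library 3 (30.6%) and WT library 1 (42.9%), and the monocyte gate in WT library 2 (50%). In WT library 4, the B-lineage gate reached 15.2 CPM and the T, NK and innate lymphoid gate 9.32, against 0.136 in stem cells. Stem and Dntt+ sums stayed between 0 and 2.07 CPM, so differences between these states were not detectable at this depth.

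Satb1 (ENSMUSG00000023927), on chromosome 17, encodes a protein that folds chromatin into loops and primes stem cells for lymphoid output. Its stem sums ran from 27.9 CPM through a median of 103 to 154. Dntt+ sums ran from 157 through 393 to 545 CPM, so the groups did not overlap. The log2 difference was 2.05 ± 0.08 (edgeR's adjusted p 1.3e-12). Flt3+ cells carried no Dntt UMI and did not meet the granule+ gate. In them Satb1 already stood 1.64 ± 0.15 above stem (edgeR, adjusted p 1.6e-24), at 287, 74.9 and 149 CPM in knockout-labelled libraries 2 and 3 and WT library 4. The state with the highest Satb1 was Il7r+ or Rag1+, with 335 CPM in knockout-labelled library 3 and 520, 641, 629 and 264 CPM in the WT libraries, 0.59 ± 0.13 above Dntt+ (edgeR, adjusted p 0.031). Without WT library 4 this step missed the threshold at an adjusted p of 0.061. Satb1 was not limited to lymphoid gates, since monocyte-gated cells had a mean log2 ratio to stem of 1.83 over 6 libraries, and Notch1 one of 1.37. Megakaryocyte-gated cells held 22.8, 15.4 and 34.1 CPM and fell by 0.69 ± 0.19 from stem (edgeR, adjusted p 0.012), and by 1.14 without WT library 4.

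Bcl11a encodes a zinc finger repressor that lymphoid progenitors and B cells need and that silences fetal globin in red cells. Its stem sums were nearly as high as its Dntt+ sums, with 228 CPM at the lowest, 461 in the median and 640 at the highest. Dntt+ sums gave 250, 512.5 and 557 CPM, a log2 difference of 0.10 ± 0.05 that missed the threshold (edgeR, adjusted p 0.12). It passed in 2 of 12 alternatives, without WT library 2 and with stricter gates. Granule+ cells fell by 1.07 ± 0.09 from the Dntt+ level (edgeR, adjusted p 7.7e-08), and plasmacytoid dendritic cells had the highest mean ratio to stem, at 286, 889 and 371 CPM.

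Tcf3 encodes E2A, the E protein at the base of the B and T cell programmes, and its RNA was nearly level. Stem sums held 38.9, 70.8 and 95.7 CPM (lowest, median, highest) and Dntt+ sums 47.9, 87.8 and 99.1. The rise of 0.28 ± 0.06 was small but present in 7 of 7 libraries (edgeR, adjusted p 0.00022). Granule+ and Dntt+ cells differed by -0.02 ± 0.07, which was not called. Tcf3 stood at 155 CPM in the B-lineage cells of WT library 4, where stem cells of that library had 42.8.

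Tcf4 encodes E2-2, the E protein that plasmacytoid dendritic cells depend on. It was highest in that state, at 404, 759 and 480.5 CPM in knockout-labelled library 3, WT library 3 and WT library 4, above the Il7r+ or Rag1+ sums of the same libraries by 0.58 ± 0.26 (log2, SD, n = 3). Stem sums ran from 133 through 270 to 409 CPM and Dntt+ sums from 186.5 through 383 to 539. The log2 rise to Dntt+ was 0.58 ± 0.05 and the further rise to Il7r+ or Rag1+ 0.36 ± 0.06 (edgeR, adjusted p 3.0e-11 and 1.6e-05). The drop in granule+ cells was -0.65 ± 0.07 from the Dntt+ level. Monocyte-gated cells matched Dntt+ cells within the spread, with a mean log2 difference (Dntt+ minus monocyte) of 0.01 ± 0.22 (SD, n = 6).

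Ebf1 (ENSMUSG00000057098), the B lineage commitment factor, was confined to few cells. The knockout-labelled libraries held 193, 10 and 191 of its UMIs and the WT libraries 96, 134, 195 and 2886. In WT library 4, 80.8% of them came from 65 B-lineage cells, at 2523 CPM, and 59 of those cells had a UMI. In WT libraries 1 to 3, Il7r+ or Rag1+ cells held 82.3%, 57.5% and 74.4% of the Ebf1 UMIs. Stem sums stayed between 0.295 and 2.31 CPM, Dntt+ sums between 1.51 and 26.8, and Il7r+ or Rag1+ sums at 34.3 CPM in knockout-labelled library 3 and 93.9, 114, 168 and 106 in the WT libraries. The step to Il7r+ or Rag1+ was the largest log2 difference of any member there, 4.4 ± 0.45 (edgeR, adjusted p 0.0036). The rise from stem to Dntt+ was 2.46 ± 0.41, and 2.08 without knockout-labelled library 1, where 15 of the 19 UMIs in Dntt+ cells lay in 1 cell.

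Notch1 (ENSMUSG00000026923), on chromosome 2, rose with each lymphoid step. Stem sums held 33.4, 46.0 and 17.7 CPM in the knockout-labelled libraries and 64.7, 58.2, 63.4 and 19.0 in the WT libraries. Dntt+ sums held 79.1, 140 and 58.3 CPM, and 137, 133, 152 and 53.7. In every library the receptor's RNA was higher in Dntt+ cells, and the log2 difference was 1.43 ± 0.07 (edgeR, adjusted p 5.3e-18). It rose by 0.76 ± 0.08 more in Il7r+ or Rag1+ cells, to 107 CPM in knockout-labelled library 3 and 186.5, 203, 249 and 106 in the WT libraries, about the level of plasmacytoid dendritic cells (108, 245 and 95.6). In Flt3+ cells it stood 0.92 ± 0.24 above stem (edgeR, adjusted p 0.0056), a call lost without knockout-labelled library 3 (adjusted p 0.17) or WT library 4 (adjusted p 1.00). DESeq2 did not call this difference either (0.83 ± 0.35, adjusted p 0.69). Megakaryocyte-gated cells had little Notch1, at 9.12, 6.90 and 13.1 CPM, and it fell by 0.96 ± 0.20 from stem (edgeR, adjusted p 0.0010). Without knockout-labelled library 3 the log2 difference was -0.79 ± 0.33 and was not called (edgeR, adjusted p 0.11).

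Mef2c encodes a MADS box factor that promotes lymphoid genes and is also made by megakaryocytes. Stem sums ran from 333 through 601 to 822 CPM and Dntt+ sums from 443 through 864 to 1306. The log2 difference was 0.61 ± 0.06, with a further 0.32 ± 0.07 in Il7r+ or Rag1+ cells (edgeR, adjusted p 1.5e-10 and 0.0072). The second step missed the threshold without WT library 2 (adjusted p 0.052) and with gates 1 UMI stricter (0.070). Granule+ cells lay 0.80 ± 0.08 below Dntt+. In the megakaryocyte gate Mef2c and Tcf3 were the 2 members that rose, by 0.40 ± 0.14 and 0.42 ± 0.12 (edgeR, adjusted p 0.030 and 0.010), with Mef2c at 636, 475 and 411 CPM. Without knockout-labelled library 3, which holds most of those cells, neither passed, at adjusted p 0.58 and 0.15.

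The share of cells in which a member was seen depends on depth, so each cell was thinned to 3000 UMIs and shallower cells were left out. Satb1 then had a UMI in 19.9 ± 8.15% of stem cells (SD, n = 7), 54.3 ± 13.9% of Dntt+ cells and 69.9 ± 10.8% of Il7r+ or Rag1+ cells (n = 5). Megakaryocyte-gated cells, which are not known to need it, showed 5.10 ± 0.92% (n = 3) and erythroid cells 4.80% in the mean of 2 libraries. Unthinned, the shares were 32.2%, 77.6%, 94.4% and 19.0% for the first 4 of these states. Median depths were 4536 to 8364 UMIs in stem cells and 7139 to 10478 in Dntt+ cells. In megakaryocyte-gated cells they were 10931.5 and 13360 in knockout-labelled libraries 1 and 3 and 14975 in WT library 4, the libraries behind its shares. Notch1 went from 11.9 ± 5.94% in stem to 26.2 ± 7.81% in Dntt+ and 41.4 ± 15.6% in Il7r+ or Rag1+ cells, against 2.14 ± 1.94% in the megakaryocyte gate (unthinned 22.1%, 52.8%, 77.3% and 11.2%). Ikzf2 fell from 59.5 ± 14.1% through 43.0 ± 9.02% to 16.4 ± 8.28% (unthinned 78.2%, 70.6% and 48.2%). Ebf1 was seen in 0.262% of stem, 0.817% of Dntt+ and 14.8% of Il7r+ or Rag1+ cells and in 83.9% of the B-lineage cells of WT library 4 (unthinned 0.527%, 2.22%, 29.3% and 90.8%), and in none of the thinned megakaryocyte or erythroid cells. Ikzf1, Tcf4 and Mef2c were seen widely, and 35.4%, 41.8% and 66.9% of megakaryocyte-gated cells had a UMI of them. A thinned cell showed 3.56 ± 0.74 of the 10 members in the stem state, 4.25 ± 0.72 in Dntt+ and 3.20 ± 0.60 in granule+ (SD, n = 7). It showed 4.66 ± 0.82 in Il7r+ or Rag1+ (n = 5) and 2.45 ± 0.44 in the megakaryocyte gate (n = 3). The megakaryocyte means here and above cover knockout-labelled libraries 1 and 3 and WT library 4, which include both list B libraries. In these the gate showed 2.91, 2.04 and 2.41 members per cell, and stem cells 3.525, 2.46 and 2.65.

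**Figure D2:**
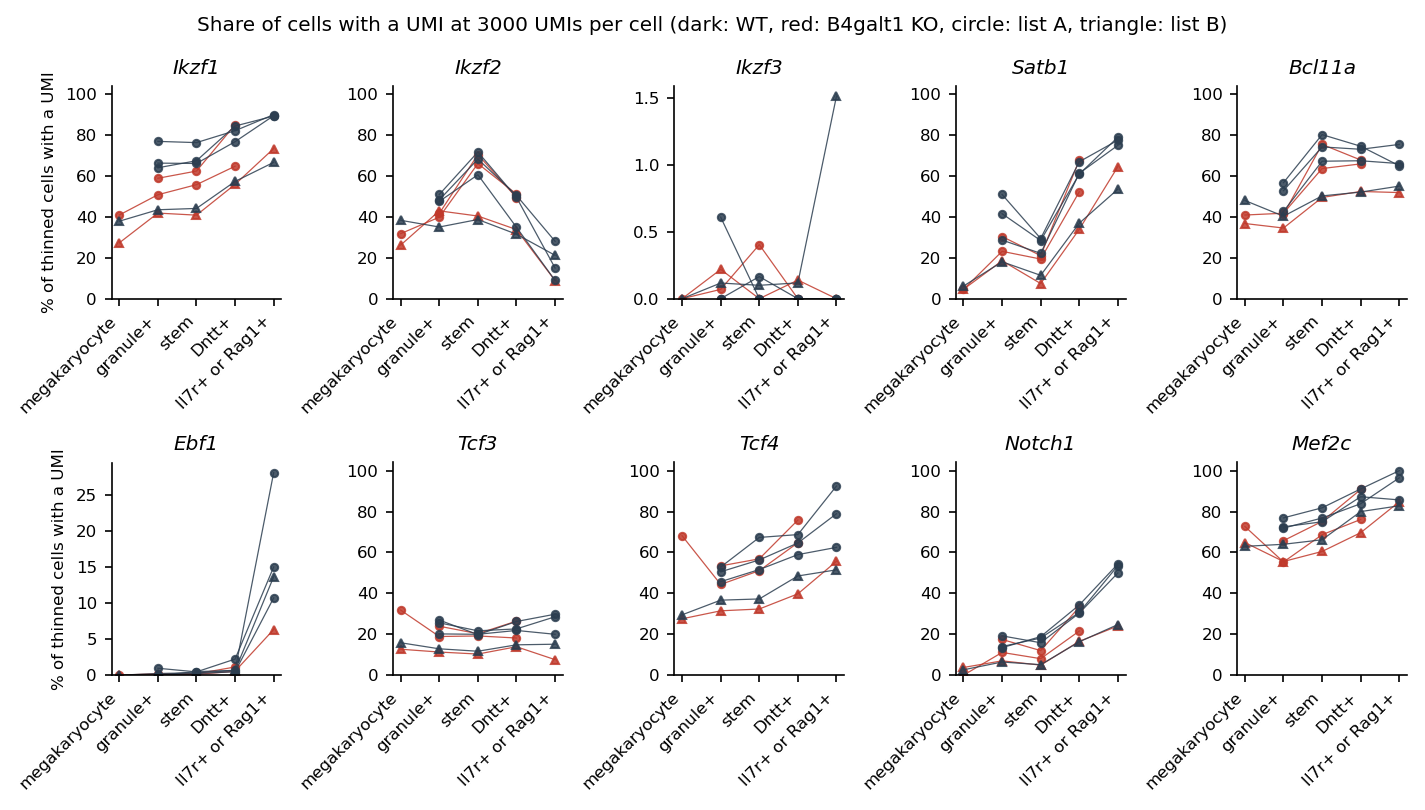
Percent of cells thinned to 3000 UMIs that hold at least 1 UMI of a member, for 5 states (a point and line per library, dark for WT and red for B4galt1 KO, circles for list A and triangles for list B, vertical scales differing for Ikzf3 and Ebf1). Satb1 and Notch1 climb from stem to Il7r+ or Rag1+ cells, Ikzf2 descends, and Tcf3 stays between 17.6% and 20.6% in the stem, Dntt+ and Il7r+ or Rag1+ means.

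Some pairs of members were seen together in a cell more often than their separate shares would give. Co-detection is given as an odds ratio in thinned cells, where 1 means that seeing the first gene leaves the odds of seeing the second as they were. Of 45 pairs, 28 had enough expected cells (3 or more) in every library. Within Dntt+ cells, 10 pairs lay above 1 in all 7 libraries and 1 pair below 1 in all 7. Pairs of genes other than the members were not counted, so whether members stand apart in this was not tested. The highest medians were Satb1 with Mef2c at 2.07 (range 1.23 to 2.58), Tcf4 with Notch1 at 1.75 (1.32 to 3.46), Ikzf1 with Mef2c at 1.74 (1.02 to 2.29) and Satb1 with Notch1 at 1.70 (1.31 to 4.02). The pair below 1 was Ikzf2 with Notch1, at 0.679 (0.410 to 0.887). Within stem cells 5 pairs lay above 1 in all 7 libraries, Satb1 with Ikzf1 among them at 1.405 (1.17 to 2.10), and Ikzf2 with Notch1 had a median of 1.12 and lay above 1 in 4 of 7. Over all kept cells 15 pairs lay above 1 everywhere, led by Satb1 with Notch1 at 2.19 (1.85 to 2.96). Thinning to 5000 UMIs left 4 pairs above 1 in all 7 libraries within Dntt+ cells instead of 10. Cells of 1 library share its handling and its doublets, so these ratios are descriptions.

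**Figure D3:**
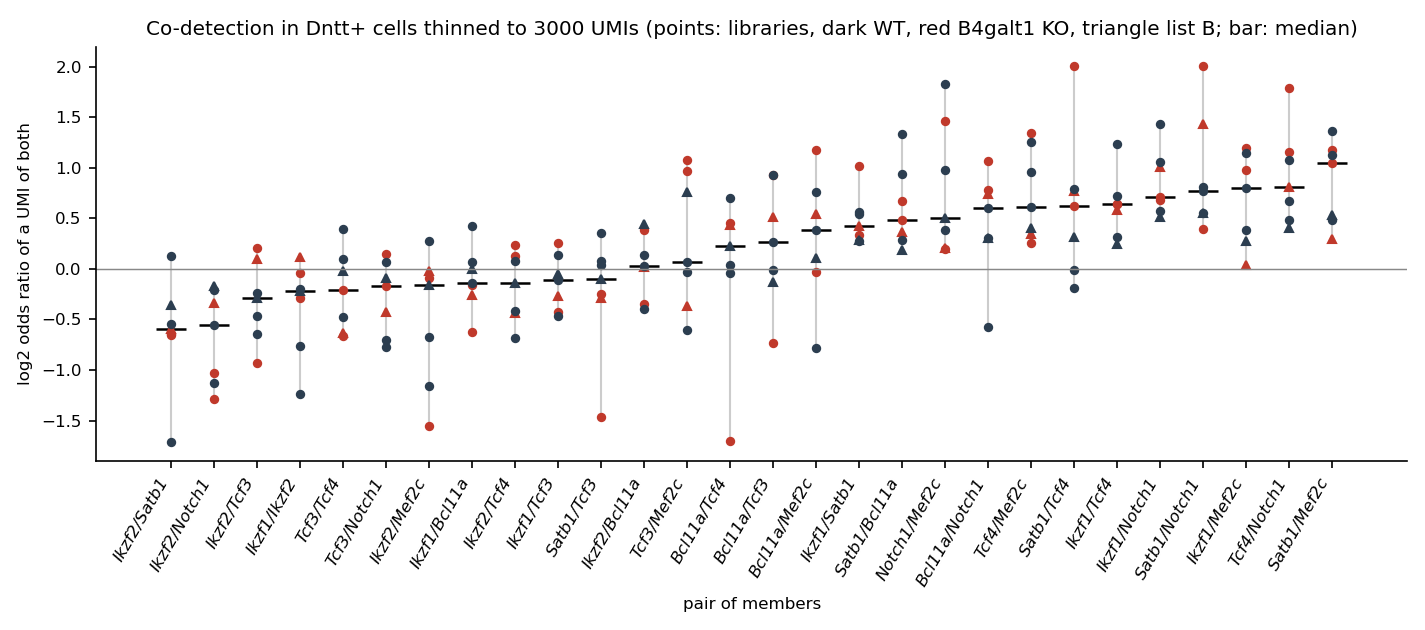
Log2 odds ratio of a UMI of both members in the same Dntt+ cell thinned to 3000 UMIs, for 28 pairs in order of their median (points are libraries, bars the median over 7, and 0 on this scale is an odds ratio of 1). The medians of all pairs among Satb1, Ikzf1, Tcf4, Notch1 and Mef2c lie above an odds ratio of 1, and Ikzf2 lies below 1 with Notch1 and with Satb1 (0.665, below 1 in 6 of 7 libraries).

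Patterns over 13 states were compared by Pearson's r of mean log2(CPM + 1) among 10572 genes with a mean of at least 5 CPM. The states share libraries and depth, and r is a description. Notch1 was most like Ikzf1 (r = 0.972) and then Ifnar2 and Il10rb, and Satb1 was most like Ifnar2 (0.969), Abr (0.961) and Notch1 (0.950). Ikzf1 lay nearest to Inpp5d (0.989), St6gal1 and Mctp2, Mef2c to Ptp4a3 (0.989), Rfx2 and Ccnd1, and Tcf4 to Ints6 (0.987), Bcr and Zmiz1. Bcl11a lay nearest to Smg1 (0.978), Bicral and Ip6k1, Ikzf2 to Gm15657 (0.976), Mdga1 and Spns2, Ebf1 to Tmem108 (0.968), Slc24a2 and Rnf141, and Tcf3 to AI504432 (0.988), Smchd1 and Mrgbp. Ikzf3, with its few UMIs, reached no more than 0.720 (Uggt1, then Top3b and Ccl5). Between Ikzf1 and Ikzf2 r was -0.05.

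The label comparison asks whether the members' RNA differed between knockout-labelled and WT libraries. B4galt1 itself gave no check of the labels: it held 51.2, 55.6 and 27.4 CPM in the knockout-labelled libraries and 56.4, 69.2, 56.7 and 34.8 in the WT libraries, a log2 difference of -0.14 ± 0.12 (edgeR, adjusted p 0.55). The counts come from the 3′ end, which part of the gene was removed is not given in the sources used here, and a tag outside that part checks nothing.

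Over all kept cells, 10 of 10 members had a log2 difference below 0 in edgeR with a term for the barcode list, with a median of -0.43 against 0.01 over all genes, and 0 of 10 were called, where 1.07% of all genes were (0.462% higher, 0.607% lower). At an unadjusted p under 0.05 there were 5 members (18.9% of all genes), and DESeq2 called 3 (5.7% of all genes). With no term for the list, 0 members and 0 of 14608 genes were called by edgeR, with 1 member, Ebf1, at an unadjusted p under 0.05. In bulk sums like these, fewer cells of a type and less RNA per cell cannot be told apart. Within list A, 6 members had every knockout-labelled library below every WT library (Ikzf1, Satb1, Bcl11a, Ebf1, Notch1 and Mef2c), as did 22.3% of all genes. In list B, with 1 library per label, 9 members were lower in the knockout-labelled library, as were 55.3% of genes. Both held for 6 members and 17.2% of genes.

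**Figure D4:**
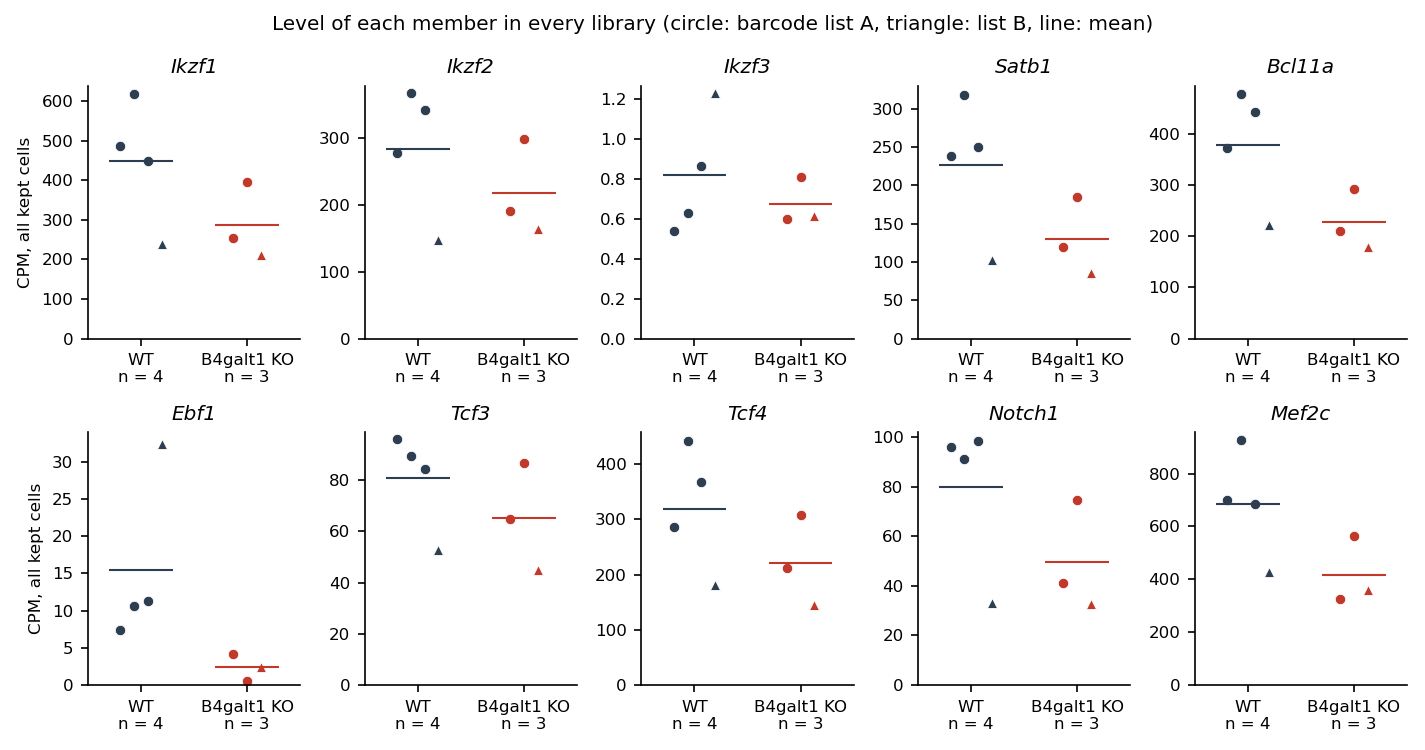
CPM of each member over all kept cells, 1 point per library, by label (dark WT, red B4galt1 KO) and barcode list (circles list A, triangles list B), with a line at each label's mean. In list A the knockout-labelled points of Ikzf1, Satb1, Bcl11a, Ebf1, Notch1 and Mef2c lie under the WT points, and the 2 list B libraries lie lower than most of list A for members other than Ikzf3 and Ebf1.

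Satb1 held 119, 185 and 85.4 CPM in the knockout-labelled libraries and 239, 318, 250 and 102 in the WT libraries. WT library 4 lay among the knockout-labelled values, and the others above them. The log2 difference was -0.56 ± 0.18 (edgeR, adjusted p 0.15), and DESeq2 gave an adjusted p of 0.043. Bcl11a held 209, 292 and 179 CPM against 371, 479, 443 and 221, a difference of -0.55 ± 0.17 (edgeR, adjusted p 0.14, DESeq2 0.016). Ikzf1 held 255, 397 and 212 CPM against 488, 619, 449 and 238 (-0.43 ± 0.19, edgeR, adjusted p 0.26). In both genes the overlap came from WT library 4 alone.

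Mef2c held 327, 562 and 361 CPM against 701, 926, 685 and 429, a log2 difference of -0.54 ± 0.21 (edgeR, adjusted p 0.22). Notch1 held 41.1, 74.7 and 32.5 CPM against 96.0, 91.0, 98.5 and 33.2, with -0.43 ± 0.20 (edgeR, adjusted p 0.27), and -0.18 without knockout-labelled library 1. Without that library Ikzf1 came to -0.26 and Mef2c to -0.33. The other members were flatter. Ikzf2 differed by -0.16 ± 0.18, Tcf3 by -0.16 ± 0.13, Tcf4 by -0.35 ± 0.18 and Ikzf3 by -0.29 ± 0.38, none called. Without knockout-labelled library 1 Ikzf2 turned to 0.02 and Tcf3 came to -0.09, without library 2 Tcf3 came to -0.25, and Ikzf3 was below 0 in 12 of 17 alternatives.

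Ebf1 was the 1 of 10 members whose 7 libraries did not overlap, as 3.67% of all genes did not in this direction, with 4.12, 0.579 and 2.39 CPM in the knockout-labelled libraries and 7.42, 10.6, 11.3 and 32.3 in the WT libraries. Its log2 difference was -2.37 ± 0.70 (edgeR, adjusted p 0.17), and -3.81 without knockout-labelled library 1 (adjusted p 6.2e-05). In that library 41 of the UMIs lay in 1 cell of the T, NK and innate lymphoid gate and 34 in 1 monocyte-gated cell. Outside the B-lineage gate, the levels were 3.74, 0.580 and 2.16 CPM against 7.43, 10.6, 11.3 and 6.27, still without overlap. Outside the B-lineage, Il7r+ or Rag1+ and plasmacytoid dendritic gates they were 2.96, 0.586 and 1.59 against 1.25, 4.36, 2.17 and 2.26, and overlapped. The T, NK and innate lymphoid, Dntt+ and Dntt+ granule+ gates stayed in. So did the cells of knockout-labelled library 1 with 41 and 34 UMIs. Among the gates taken out there is Il7r+ or Rag1+, which held 0.902 ± 0.315% of knockout-labelled cells (SD, n = 3) and 3.58 ± 0.968% of WT cells (n = 4).

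The makeup of the sorted cells moved with the label. Dntt+ cells made up 3.03% to 10.6% of knockout-labelled libraries and 17.3% to 20.3% of WT libraries, granule+ cells 20% to 47.5% against 5.93% to 13.2%, and stem cells 18.1% to 29.6% against 34.3% to 43.6%. The part of this in the differences above was not tested beyond the values that follow. Within a state, 0 of the members were called between labels in any of the 5 states with at least 20 cells in every library, where 0.113% (stem), 0.179% (Dntt+), 0.28% (Dntt+ granule+), 0.16% (granule+) and 0.176% (Mpo+) of all genes were called. Of 42 such edgeR tests, 37 had a log2 difference below 0 and 8 an unadjusted p under 0.05, and DESeq2 also called 0. Of all genes in these states 47.5% to 52.7% were below 0 and 4.18% to 8.64% had such a p. The 42 tests repeat the same members in states of the same libraries, so they are not independent. The medians over members were -0.27 in stem, -0.14 in Dntt+, -0.17 in Dntt+ granule+, -0.26 in granule+ and -0.20 in Mpo+ cells, where those over all genes ran from -0.01 to 0.02.

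**Figure D5:**
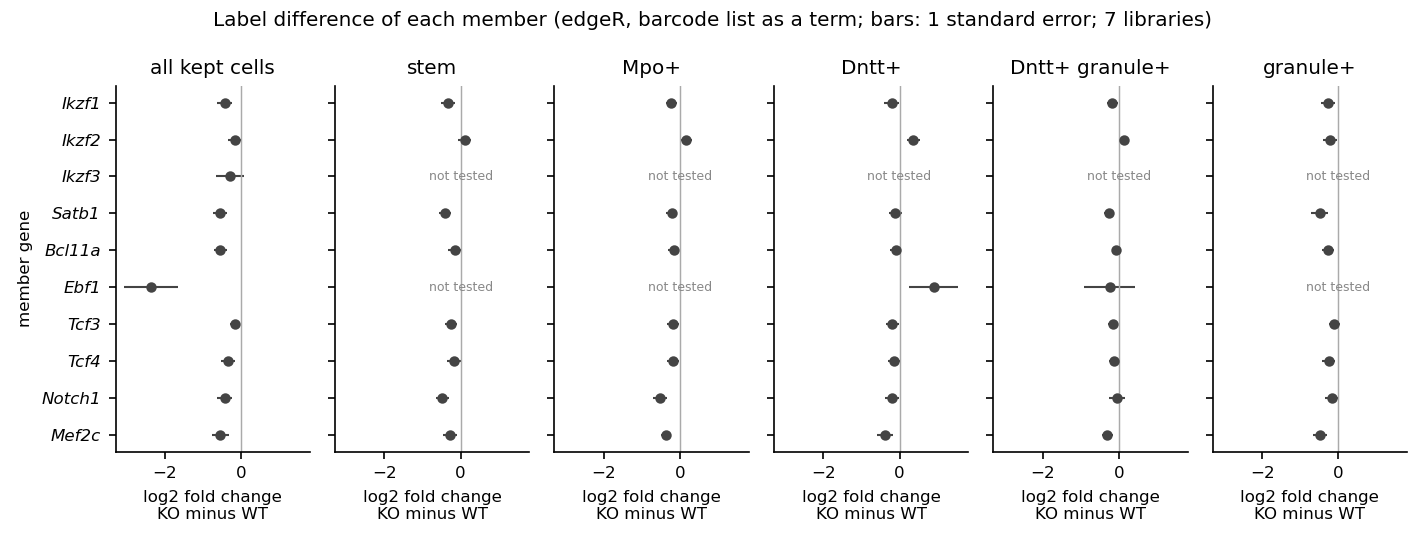
Log2 difference, knockout-labelled minus WT libraries, of each member over all kept cells and within 5 states (points with bars of 1 SE, 1 panel per set of cells, edgeR with a term for the barcode list). Over all cells every point is below 0, and within states 37 of 42 do, with Ikzf2 above 0 in all but the granule+ state.

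Notch1 and Satb1 had the lowest p-values within stem cells. The stem values of Notch1 given above, 33.4, 46.0 and 17.7 CPM against 64.7, 58.2, 63.4 and 19.0, came to -0.48 ± 0.17 (edgeR, unadjusted p 0.014, adjusted p 0.76), and to -0.29 without knockout-labelled library 1. Those of Satb1 were 96.8, 109 and 27.9 CPM against 103, 154, 132 and 42.7, or -0.41 ± 0.16 (edgeR, unadjusted p 0.025, adjusted p 0.97), with overlap inside list A. In Mpo+ cells Notch1 held 32.5, 47.3 and 18.8 CPM against 62.7, 65.8, 54.9 and 23.9, a log2 difference of -0.52 ± 0.18 (edgeR, unadjusted p 0.0076, adjusted p 0.61). For Notch1, in both states, knockout-labelled libraries lay under WT libraries within each barcode list. Over all kept cells 17.2% of genes did so, and the share within these states was not counted. Ikzf2 went the other way in Dntt+ cells, with 329, 367 and 141 CPM against 193, 261.5, 279 and 133, or 0.36 ± 0.16 (edgeR, unadjusted p 0.040, adjusted p 1.00). There too the groups did not overlap within a list, and the share of genes for which this held in Dntt+ cells was not counted.

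Weighting the 5 states by 1 common makeup gave the label difference with the same mix of states in every library. These states held 79.7% to 89.9% of kept cells. For the 8 members other than Ikzf3 and Ebf1, the median log2 ratio of mean CPM was -0.59 with each library's own makeup and -0.34 with the common one. Within list A it was -0.62 and -0.32. Bcl11a went from -0.73 to -0.29, Ikzf2 from -0.41 to -0.09, Satb1 from -0.72 to -0.47, Mef2c from -0.70 to -0.48 and Notch1 from -0.59 to -0.43, while Tcf3 stayed, at -0.25 and -0.26. The values per gene cover all libraries with no term for the barcode list. The difference left with a common makeup was not tested.

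Whether the label difference itself differed between Dntt+ and stem cells was tested as an interaction, and 0 of 9 members were called, where 0.00775% of genes were. Ebf1 had the smallest p, with 2.70 ± 0.70 (edgeR, unadjusted p 0.00046, adjusted p 0.54), and it was 1.82 without knockout-labelled library 1. Satb1 had 0.34 ± 0.13, Notch1 0.30 ± 0.14 and Ikzf2 0.28 ± 0.13, each with an unadjusted p under 0.05 and an adjusted p of 1.

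Other genes of the same pathways were followed in 6 lists, with members left out, beside 1.07% of all genes called in the same fit (0.462% higher, 0.607% lower). Among other lymphoid regulators 2 of 17 tested were lower over all kept cells and none higher, with a median of -0.34. They were Ets1, at 11.45, 11.01 and 9.96 CPM in knockout-labelled and 19.7, 24.3, 29.8 and 17.2 in WT libraries (-0.93 ± 0.15, edgeR, adjusted p 0.030), and Tox (-1.77 ± 0.33, adjusted p 0.049), a factor of T and innate lymphoid cells. Among early lymphoid genes 5 of 15 were lower and none higher, with a median of -1.11: Rag1, the recombinase (-3.33 ± 0.45), Ccr9, a chemokine receptor (-2.61 ± 0.44), Arpp21 (-2.42 ± 0.36), Bank1, a B cell scaffold protein (-2.02 ± 0.26), and Il7r (-1.11 ± 0.17). The edgeR adjusted p-values ran from 0.011 for Bank1 to 0.030 for Arpp21. Several of these genes also set the gates, whose shares moved with the label as given above. None of these 7 genes was called without the barcode list, where 0 of 14608 genes were. Tox and Arpp21 lost the call without any 1 of knockout-labelled libraries 1 and 2 and WT libraries 1, 2 and 3, Ets1 without knockout-labelled library 2 or WT library 1 or 3, Ccr9 without knockout-labelled library 1 or WT library 1 or 3, Il7r without WT library 1 or 3, and Rag1 without WT library 3.

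Of 23 tested Notch receptors, sugar transferases and targets, 1 rose and none fell, with a median of -0.06. It was Dtx4, a Deltex ubiquitin ligase, at 14.5, 12.9 and 5.50 CPM in the knockout-labelled and 5.57, 7.10, 5.21 and 3.98 in the WT libraries (1.08 ± 0.20, edgeR, adjusted p 0.041). That call was lost without any 1 of knockout-labelled libraries 1 and 2 and WT libraries 1, 2 and 3. Of 7 E protein partners and inhibitors none was called (median -0.21). Lmo2, an adaptor that joins E proteins to stem cell factors, and Id1, an inhibitor of E proteins, had the smallest p, at -0.37 ± 0.17 and 0.95 ± 0.55 (edgeR, adjusted p 0.27 and 0.40). Of 13 subunits of NuRD, the chromatin remodeller that Ikaros and Bcl11a recruit, none was called (median 0.03), with Mta3 at -0.40 and Chd3 at -0.37. Of 7 Mef2 family and class IIa deacetylase genes none was called (median -0.17), with Mef2a at -0.48 and Hdac7 at -0.34.

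Along the lymphoid step from stem to Dntt+ cells the same lists, beside the 39.3% of genes called, gave 7 higher and 5 lower of 13 other lymphoid regulators and 4 higher and 5 lower of 22 Notch genes. Of the regulators called between labels, Ets1 differed by 0.81 ± 0.10 here and Tox by -0.48 ± 0.09 (edgeR, adjusted p 6.2e-08 and 0.00044). Tox also lay below stem in Flt3+ cells (-0.80 ± 0.15), and its step from Dntt+ to Il7r+ or Rag1+ cells was not called (0.13 ± 0.07). Of 7 E protein partners and inhibitors 2 were higher and 4 lower. Id1 fell by 0.69 ± 0.14 and Lmo2 by 0.40 ± 0.05. Of 13 NuRD subunits 8 were higher and none lower, with a median of 0.19, and of 7 Mef2 and deacetylase genes 3 were higher and none lower, Mef2a by 0.34 ± 0.05 and Hdac7 by 0.31 ± 0.07. Dtx4, the Notch list gene that differed between labels, rose by 1.89 ± 0.22 here and by 1.51 ± 0.25 from Dntt+ to Il7r+ or Rag1+ cells (edgeR, adjusted p 1.1e-08 and 2.4e-05). The rise of Dtx4 was not limited to the lymphoid steps, since granule+ cells lay 0.74 ± 0.19 above Dntt+ cells (edgeR, adjusted p 0.0046).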

How the data were processed

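The authors deposited a sparse matrix of UMI counts per gene and cell barcode for each of the 7 libraries. Cell Ranger 7.0.0, Seurat 4.4.0 and the build mm10 are named in the submitters' processing notes, and the labels' protocols name the kit 10x Single Cell 3′ v2. They name this kit for every library, although the barcodes fell into the separate lists A and B. Whether the kit differed between the lists was not tested. The counts were used as deposited.

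Cells were kept with at least 1000 UMIs, 500 genes and at most 10% mitochondrial UMIs. Scrublet (in Scanpy 1.11.5) called 0 to 3 barcodes per library and so did not work, and doublets remain. Raw counts were summed per library and marker-gated state and tested with edgeR 4.0.16 in R 4.3.3 (quasi-likelihood F test, TMM, filterByExpr, robust, two-sided). Label fits had the barcode list as a term. SE is the log2 difference divided by the root of F. DESeq2 1.42.0, no barcode list, list A alone, no filter on genes, leaving out each library, a replicate block, other cell filters and stricter gates were tried as alternatives. DESeq2 with no list, list A alone between states, and a list by state term were chosen after seeing the data. The fits were checked on simulated counts.

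The members and gene lists were chosen with earlier results of these data known. The genes named are the members, B4galt1, per list those called between labels or else the 2 with the smallest p, and per member the 3 most alike genes.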

Additional observations from a re-analysis of the deposited data

Results flagged for a closer look

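Of 27 groups of WT libraries examined, 5 had a library far from the other 3 by Dixon's limit for 4 samples, and chance alone marks about 1 in 20. In 4 of them the library was WT library 4, the WT library of barcode list B. Over all kept cells it held 33.2 CPM of Notch1 where the others held 91.0 to 98.5, in stem cells 19.0 CPM of Notch1 against 58.2 to 64.7, and in Dntt+ cells 255.5 CPM of Bcl11a against 512.5 to 557. The fourth was Ebf1 over all kept cells, at 32.3 CPM against 7.42 to 11.3, beside its 65 B-lineage cells. WT library 2 held 12.6 CPM of Ebf1 in Dntt+ cells where the others held 3.05 to 4.445.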

How the results depend on the processing

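Of 1705 alternative values, 1493 stayed on their side of the threshold or within the spread or 1.5 times of a count, 26 newly passed, 18 lost the call and 168 moved. No called difference changed sign, but 37 values of 20 uncalled differences did. The calls of Satb1, Notch1, Ikzf1, Ikzf2, Ebf1, Tcf3, Tcf4 and Mef2c between Dntt+ and stem cells were made in 12 of 12 alternatives, and Bcl11a joined them in 2. Gates 1 UMI stricter moved Ebf1 there to 4.00 and Ikzf2 to -1.02, and the step to Il7r+ or Rag1+ to 0.36 for Satb1, 0.19 for Tcf4 and 0.15 for Mef2c. Over all kept cells, the count of members called between labels was 0, and 3 by DESeq2 (0 by DESeq2 without the barcode list), with a range of 0 to 1 over libraries left out. All genes called there numbered 162, and 0 without the barcode list, 362 in list A alone, 864 by DESeq2, 547 with no gene filter and 16 to 363 with 1 library left out. For Flt3+ against stem, 2 members became 1 by DESeq2, 6 with gates 1 UMI stricter and 1 to 5 with 1 library left out. For the megakaryocyte gate, 8 became 5 by DESeq2 and 1 to 8 with 1 library left out. Co-detected pairs in Dntt+ cells went from 10 to 4 when thinned to 5000 UMIs. The cause of these shifts was not tested. Replicate numbers were not taken to pair the samples, since the correlation of deviations was 0.505, 0.695 and -0.345 for numbers 1, 2 and 3. Knockout-labelled libraries 1 and 2 correlated best with the WT library of their number (next best 0.303 and 0.467), and library 3 with WT library 4 (0.878), the other library of list B. With the replicate block and the barcode list, which leave little to estimate the spread from, 4 members were called over all kept cells, 7 within states and 2699 genes in all. With the replicate block and no list 0 members and 1 gene were called. Depth limits Ikzf3, with 7 to 110 UMIs per library, and Ebf1 outside lymphoid gates.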
